A study of Mus musculus with 4 samples.

Results

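The genes described here are 9 genes of B cells and plasma cells in mouse lung: Ms4a1, Cd79a, Cd79b, Tnfrsf13c, Fcmr and Pax5, called the B cell genes below, and Tnfrsf17, Jchain and Mzb1, called the plasma cell genes. They were taken by name from the gene annotation in the files of an Agilent array. The rule found all 9, with 12 probes on 21 spots, among 31035 genes, 39429 probes and 43020 spots that are not controls. The rule uses no measured value. RNA described as whole lung was hybridised to 4 one-colour arrays, 1 for each group. The groups were Pla2g3-/- after antigen challenge, Pla2g3-/- control, Pla2g3+/+ after antigen challenge and Pla2g3+/+ control. Each array received RNA pooled from 4 samples, so nothing here measures the spread between mice. The challenge was a model of allergic asthma: ovalbumin (10 µg) with alum (1.3 mg) given into the peritoneum on days 0 and 14, then 1% ovalbumin aerosol for 30 min on each of days 26, 27 and 28, with lungs taken 48 h after the last exposure. The labels carry this protocol on every sample, and what the controls received, and the strain, age and sex of the mice, were not among the details given here.

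B cells recognise antigen through a surface antibody that signals through the paired chains Cd79a and Cd79b. They keep their identity through the transcription factor Pax5 and survive through Tnfrsf13c, the receptor for the cytokine BAFF. After activation some become plasma cells, which lose Pax5 and Ms4a1, gain the survival receptor Tnfrsf17 and secrete antibody, with Jchain linking the units of IgM and IgA and Mzb1 helping antibody assembly in the endoplasmic reticulum. In lung, B cells lie in the circulation, in the tissue and in lymphoid clusters along the airways, and plasma cells under the airway epithelium supply IgA. Several of these genes are not exclusive to the lineage: Mzb1 and Cd79b are also expressed in plasmacytoid dendritic cells, and Fcmr in other lymphocytes. In whole lung RNA, fewer cells of a type and less RNA per cell cannot be told apart.

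Pla2g3, the gene that was targeted, read higher on the arrays labelled knockout. Its log2 level in the authors' value table was 0.06 in the challenged and -0.20 in the control array labelled knockout, against -4.6 and -4.66 in the corresponding wild-type arrays. In the scanner files it was 1.07 and 0.14 in the knockout-labelled arrays, against -2.83 and -3.05. A dimmer second probe was also higher under the knockout label in both sources. It had -4.18 (challenged) and -4.36 (control), against -8.07 and -8.38, in the table. In the scanner files it had -2.56 (challenged) and -3.37 (control), against -7.11 and -5.49. The sources at hand do not say which part of the gene was removed, so a probe may lie outside it and would then not test the labels. Why both probes read higher under the knockout label was not tested. The arrays are therefore named by their labels, KO-labelled and WT-labelled, and every direction between genotypes depends on those labels. Levels here are log2 signals with 0 at the 75th percentile of the array, and a difference of 1 is a 2-fold difference.

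A table column resembled the scanner array of its own name no more than it resembled the other scanner arrays. Across probes, levels correlated at 0.915 to 0.923 between a table column and the scanner array of its name, at 0.915 to 0.922 under other names, and at 0.985 or more within either source. The lung label held for the table, where the alveolar gene Sftpc had levels of 6.92 to 7.04. On the scanner arrays Sftpc lay between -1.33 and -0.26 and the endothelial gene Pecam1 between -3.38 and -2.92. The airway gene Scgb1a1 lay between 7.67 and 7.89. Other alveolar markers did not read alike on these arrays. Sftpa1 lay between 4.47 and 5.09, Lamp3 between 2.2 and 2.44 and Sftpb between 0.58 and 2.56, while Ager lay between -5.34 and -4.84. In the table Pecam1 lay between 0.29 and 0.55 and Ager between 3.6 and 3.73. The tissue on the scanner arrays was not tested, and lung is their label. Values are therefore given for each source, and differences were taken only within a source. The 75th percentile lay at an intensity of 1808 to 1986, and 79.22% to 81.93% of spots were above background in the scanner files. With the table rule, 79.82% to 82.07% were.

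All 9 genes were above background in every column of the table. In the scanner data 8 were above background on every array, and Tnfrsf17 on the KO-labelled control array only. The 6 B cell genes had their highest level in the WT-labelled control array in both sources (6 of 6 each). In the table they also had their lowest in the KO-labelled challenged array (6 of 6), by steps of less than 2-fold. Among scanner arrays the WT-labelled control array stood apart and the other 3 lay close together. The plasma cell genes separated by genotype label in the table, with the KO-labelled arrays at least 2-fold lower in both treatments. Ms4a1, Cd79a, Tnfrsf13c and Pax5 also had both KO-labelled table arrays below both WT-labelled ones, but by less than 2-fold within each treatment. Jchain separated by label in the scanner files too, with the KO-labelled arrays higher.

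**Figure D1:**
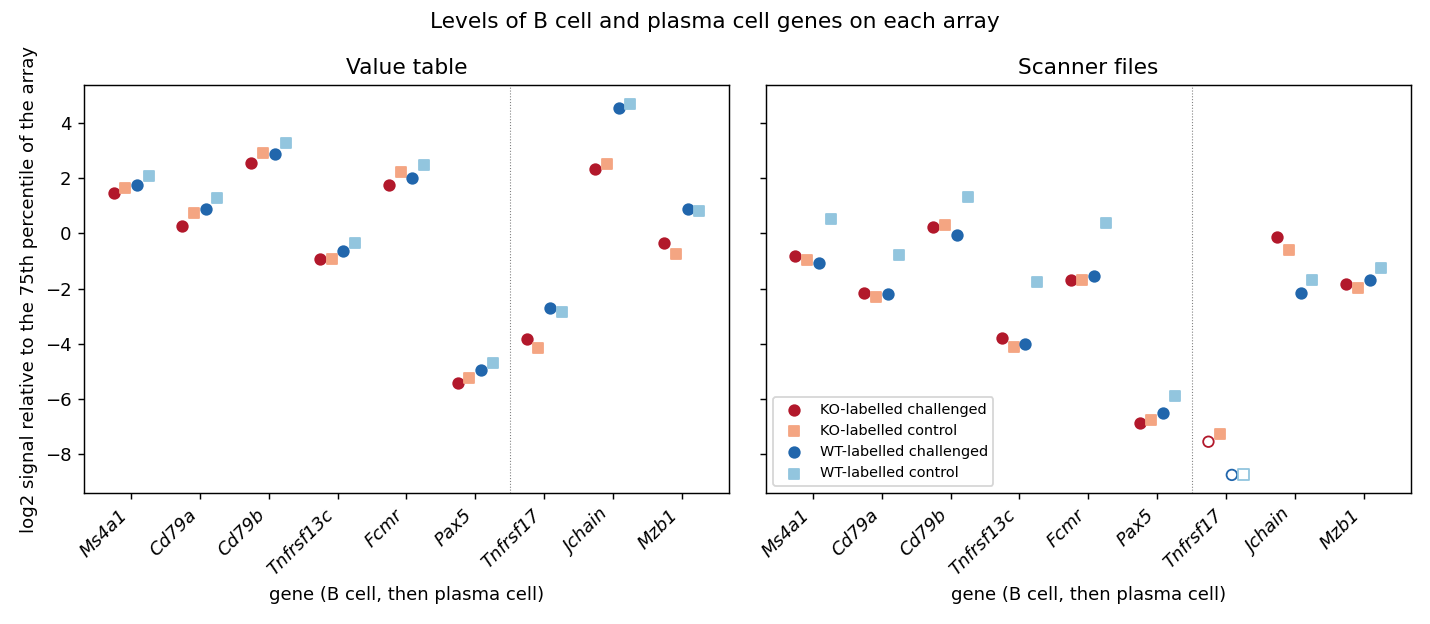
Level of each gene on each array (y axis, log2 signal relative to the 75th percentile of the array), with the value table on the left and the scanner files on the right. Circles are challenged and squares control arrays, red KO-labelled and blue WT-labelled, and open symbols mark arrays on which a probe was not above background. In the scanner arrays the WT-labelled control square lies above the other symbols for all 6 B cell genes, and in the table Jchain lies at 2.31 and 2.51 in the KO-labelled arrays, against 4.53 and 4.69 in the WT-labelled ones.

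Cd79a and Cd79b encode the signalling chains of the B cell receptor. The Cd79b probe lies at chr11:106172780-106172839 (mm9). In the table Cd79a had a level of 0.26 in KO-labelled challenged, 0.74 in KO-labelled control, 0.89 in WT-labelled challenged and 1.29 in WT-labelled control arrays. Cd79b had 2.55, 2.90, 2.88 and 3.27 in the KO-labelled challenged, KO-labelled control, WT-labelled challenged and WT-labelled control arrays. For both genes each challenged array was lower than the control of its label, and each KO-labelled array lower than its WT-labelled counterpart. The challenge differences were -0.48 (KO-labelled) and -0.40 (WT-labelled) for Cd79a, and -0.34 (KO-labelled) and -0.39 (WT-labelled) for Cd79b. They had the same sign and nearly the same size under both labels.

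Among scanner arrays Cd79a had -2.17 in KO-labelled challenged, -2.31 in KO-labelled control, -2.19 in WT-labelled challenged and -0.80 in WT-labelled control arrays. Cd79b had 0.23 in KO-labelled challenged, 0.28 in KO-labelled control, -0.05 in WT-labelled challenged and 1.31 in WT-labelled control arrays. Agilent's error of the spots was 0.20 on a difference of 2 arrays, so for Cd79a the lower 3 arrays differed by less than that error and the WT-labelled control by several times more. This error covers the reading of spots and not variation between mice. Cd79a was 2.63-fold and Cd79b 2.56-fold lower in the WT-labelled challenged array than in its control, and the KO-labelled control was 2.85-fold (Cd79a) and 2.04-fold (Cd79b) lower than the WT-labelled control.

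The array holds a second probe for Cd79a, Tnfrsf13c and Pax5, which gives a separate reading of these genes. The brighter Cd79a probe, at base 930 of the transcript, carries the polyadenylation signal AATAAA and ends with 6 A, and the files place it at chr12:53180558-53180617 (mm9), whereas RefSeq lists Cd79a on chromosome 7 (GRCm38). The other Cd79a probe starts at base 321. The Tnfrsf13c probes start at bases 1817 (chr15:82052203-82052262, mm9) and 91 (chr15:82054616-82054675, mm9), and the Pax5 probes at bases 751 (chr4:44658421-44658480, mm9) and 1009. The 4 probes within coding sequence are shown, since they read the protein-coding part of the message, with the first base of the sequence at the stated position:
Cd79a, base 321: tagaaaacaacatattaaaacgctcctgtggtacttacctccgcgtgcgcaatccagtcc
Tnfrsf13c, base 91: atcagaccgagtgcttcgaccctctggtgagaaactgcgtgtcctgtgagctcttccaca
Pax5, base 751: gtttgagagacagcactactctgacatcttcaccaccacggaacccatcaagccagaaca
Pax5, base 1009: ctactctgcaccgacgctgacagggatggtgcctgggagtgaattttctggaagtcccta

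The coding probe of Cd79a was also highest in the WT-labelled control of both sources. Its level in the table was -3.83 in KO-labelled challenged, -3.40 in KO-labelled control, -3.19 in WT-labelled challenged and -2.60 in WT-labelled control arrays. In the scanner files it was -5.50, -5.44 and -5.52 in the KO-labelled challenged, KO-labelled control and WT-labelled challenged arrays, and -4.48 in the WT-labelled control. The order of the 4 table columns was that of the brighter probe. Between the scanner controls this probe gave a KO-labelled minus WT-labelled difference of -0.96, just short of 2-fold. Its challenge differences there were -0.06 (KO-labelled) and -1.04 (WT-labelled), so in the KO-labelled pair the sign was not that of the brighter probe (0.14).

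Ms4a1, a membrane protein of mature B cells, followed the receptor chains. Its probe lies at chr19:11325367-11325426 (mm9). In the table its level was 1.46 in KO-labelled challenged, 1.62 in KO-labelled control, 1.76 in WT-labelled challenged and 2.08 in WT-labelled control arrays. The scanner files had -0.81 in KO-labelled challenged, -0.98 in KO-labelled control, -1.06 in WT-labelled challenged and 0.50 in WT-labelled control arrays. Its range was 0.62 in the table and 1.56 in the scanner files. Between scanner arrays Ms4a1 was 2.95-fold lower in the WT-labelled challenged array than in the WT-labelled control (-1.56, spot error 0.20), and 1.12-fold higher in the KO-labelled challenged array than in its own control (0.17, spot error 0.20), a difference smaller than the spot error.

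Tnfrsf13c, the BAFF receptor that keeps mature B cells alive, had the widest scanner range of the 9 genes, 2.33. Its levels in the scanner files were -3.80 in KO-labelled challenged, -4.11 in KO-labelled control, -4.01 in WT-labelled challenged and -1.78 in WT-labelled control arrays. It was 4.70-fold lower in the WT-labelled challenged array than in the WT-labelled control, and 5.03-fold lower in the KO-labelled than in the WT-labelled control. The probe at base 91 had -5.87 in KO-labelled challenged, -6.23 in KO-labelled control, -6.28 in WT-labelled challenged and -5.06 in WT-labelled control arrays, with a range of 1.22. Both probes were thus highest in the WT-labelled control, with different sizes.

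In the table the range of Tnfrsf13c was 0.58, the narrowest of the 9 genes. The brighter probe had -0.95 in both KO-labelled arrays, -0.63 in WT-labelled challenged and -0.37 in WT-labelled control arrays. The probe at base 91 had -5.77 in KO-labelled challenged, -5.73 in KO-labelled control, -5.22 in WT-labelled challenged and -4.90 in WT-labelled control arrays. With either probe both KO-labelled arrays lay below both WT-labelled arrays, and the 2 KO-labelled arrays had nearly equal levels.

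Fcmr, the receptor for the constant part of IgM, is measured by a probe at chr1:132777256-132777315 (mm9). In the table it had 1.74 in KO-labelled challenged, 2.21 in KO-labelled control, 1.99 in WT-labelled challenged and 2.45 in WT-labelled control arrays. Here both challenged arrays lay below both controls, with differences of -0.47 in the KO-labelled and -0.45 in the WT-labelled pair. The scanner files had -1.71 in KO-labelled challenged, -1.69 in KO-labelled control, -1.55 in WT-labelled challenged and 0.36 in WT-labelled control arrays. Fcmr was 3.78-fold lower in the WT-labelled challenged array than in its control and 4.15-fold lower in the KO-labelled than in the WT-labelled control, and the other 3 scanner arrays lay within the spot error of 0.20 of each other.

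Pax5, the transcription factor that commits cells to the B lineage, was dim. Its brighter probe had -5.41 in KO-labelled challenged, -5.25 in KO-labelled control, -4.95 in WT-labelled challenged and -4.69 in WT-labelled control arrays of the table. On the scanner arrays it had -6.86 in KO-labelled challenged, -6.77 in KO-labelled control, -6.51 in WT-labelled challenged and -5.89 in WT-labelled control arrays. The order of the arrays was the same in both sources, from the KO-labelled challenged array at the low end to the WT-labelled control. No scanner difference of Pax5 reached 2-fold, and the spot error on its differences was 0.26 to 0.34. The probe at base 1009 ranged over 0.23 in the table and was not above background on any scanner array.

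Jchain, which links antibody units for transport across epithelia, had the widest table range of the 9 genes, 2.38. The probe lies at chr5:88949919-88949978 (mm9). In the table it had 2.31 (challenged) and 2.51 (control) under the KO label, against 4.53 (challenged) and 4.69 (control) under the WT label. Both KO-labelled arrays were far below both WT-labelled ones, 4.65-fold lower between challenged arrays and 4.51-fold lower between controls. The challenge differences were -0.20 (KO-labelled) and -0.16 (WT-labelled).

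In the scanner data the KO-labelled arrays were the higher ones for Jchain. It had -0.12 (challenged) and -0.60 (control) under the KO label, against -2.15 (challenged) and -1.68 (control) under the WT label. It was 4.09-fold higher in the KO-labelled than in the WT-labelled challenged array (2.03, spot error 0.20) and 2.13-fold higher between controls (1.09, spot error 0.20). The genotype difference of Jchain therefore had opposite signs in the 2 sources, in each case with both KO-labelled arrays on one side of both WT-labelled arrays. Relative to Ms4a1, KO-labelled minus WT-labelled was -1.91 (challenged) and -1.71 (control) in the table, and 1.79 (challenged) and 2.57 (control) in the scanner files.

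Mzb1 is the only gene of the 9 whose probe is repeated, with 10 spots on each array. In the table it had -0.36 ± 0.06 in KO-labelled challenged, -0.75 ± 0.05 in KO-labelled control, 0.89 ± 0.05 in WT-labelled challenged and 0.80 ± 0.06 in WT-labelled control arrays (SD over 10 spots of 1 array). Both KO-labelled arrays were lower, 2.38-fold between challenged arrays and 2.92-fold between controls, and these gaps were many times the SD of the spots. In the KO-labelled pair the challenged array was higher by 0.39.

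Among scanner arrays Mzb1 had -1.83 ± 0.07 in KO-labelled challenged, -1.97 ± 0.07 in KO-labelled control, -1.69 ± 0.04 in WT-labelled challenged and -1.27 ± 0.07 in WT-labelled control arrays (SD over 10 spots). Its range of 0.70 was under 2-fold. Like the B cell genes it was highest in the WT-labelled control, and unlike Jchain it was not higher in the KO-labelled arrays.

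Tnfrsf17, the receptor through which long-lived plasma cells survive, has a probe at chr16:11320045-11320104 (mm9). In the table it had -3.83 (challenged) and -4.15 (control) under the KO label, against -2.69 (challenged) and -2.84 (control) under the WT label. It was 2.21-fold lower in the KO-labelled array after challenge and 2.49-fold lower in controls. The scanner files had -7.54 in KO-labelled challenged, -7.26 in KO-labelled control, -8.74 in WT-labelled challenged and -8.72 in WT-labelled control arrays. With 3 of these 4 arrays not above background, no scanner difference of Tnfrsf17 reached 2-fold as a bound: the KO-labelled control was at least 1.34-fold higher than the WT-labelled control.

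The first question the design asks is which genes differ after antigen challenge. In the table, the B cell genes were lower in the challenged array of both labels by less than 2-fold, with a median over the 6 genes of -0.25 in the KO-labelled and -0.36 in the WT-labelled pair. Mzb1 and Tnfrsf17 were higher and Jchain lower, all by 0.39 or less in size. Of the 9 genes 0 were 2-fold higher or lower in either pair. Among all genes, 2.67% were at least 2-fold higher and 0.779% lower in the KO-labelled pair, and 1.9% higher and 0.652% lower in the WT-labelled pair. The median over the 9 genes was -0.16 in the KO-labelled and -0.26 in the WT-labelled pair, beside 0.02 and 0.01 over all genes tested in the same pairs.

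In the scanner arrays the pairs differed. In the KO-labelled pair 0 of 9 genes reached 2-fold in either direction, where 3.86% of all genes were higher and 3.37% lower. In the WT-labelled pair 5 of 8 genes were at least 2-fold lower (Ms4a1, Cd79a, Cd79b, Tnfrsf13c and Fcmr) and 0 higher, where 1.68% of all genes were lower and 1.88% higher. The median over the genes was 0.14 in the KO-labelled pair and -1.38 in the WT-labelled pair, beside -0.06 and -0.03 over all genes tested in the same pairs. The WT-labelled difference is set by 1 array, the WT-labelled control, in which the B cell genes lay on average 1.13 above their own mean over the 4 arrays, while the other 3 arrays lay between -0.41 and -0.34.

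The second question is whether the labelled deletion goes with a difference in unchallenged or challenged lung. In the table all 9 genes were lower in the KO-labelled array in both treatments. The 3 plasma cell genes were at least 2-fold lower in both (3 of 9 genes each), where 2.5% of all genes were lower and 1.76% higher after challenge, and 2.38% lower and 1.56% higher in controls. The B cell genes were lower by less than 2-fold, with differences of -0.64 to -0.25 between challenged arrays and of -0.58 to -0.23 between controls. The medians over the 9 genes were -0.46 (challenged) and -0.56 (control), beside 0.01 and a value that rounds to 0 over all genes.

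Among scanner arrays the KO-labelled control was at least 2-fold lower than the WT-labelled control for 5 of 9 genes, the same 5 B cell genes that were lower in the WT-labelled challenge pair, with which it shares the WT-labelled control array. Jchain was higher. Among all genes 1.9% were lower and 3.22% higher. Between challenged arrays Jchain alone of 8 genes reached 2-fold, as a higher gene, where 3.86% of all genes were higher and 2.57% lower. The B cell genes differed there by -0.35 to 0.28. The medians were 0.11 between challenged arrays and -1.03 between controls, beside -0.05 and -0.03 over all genes tested.

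**Figure D2:**
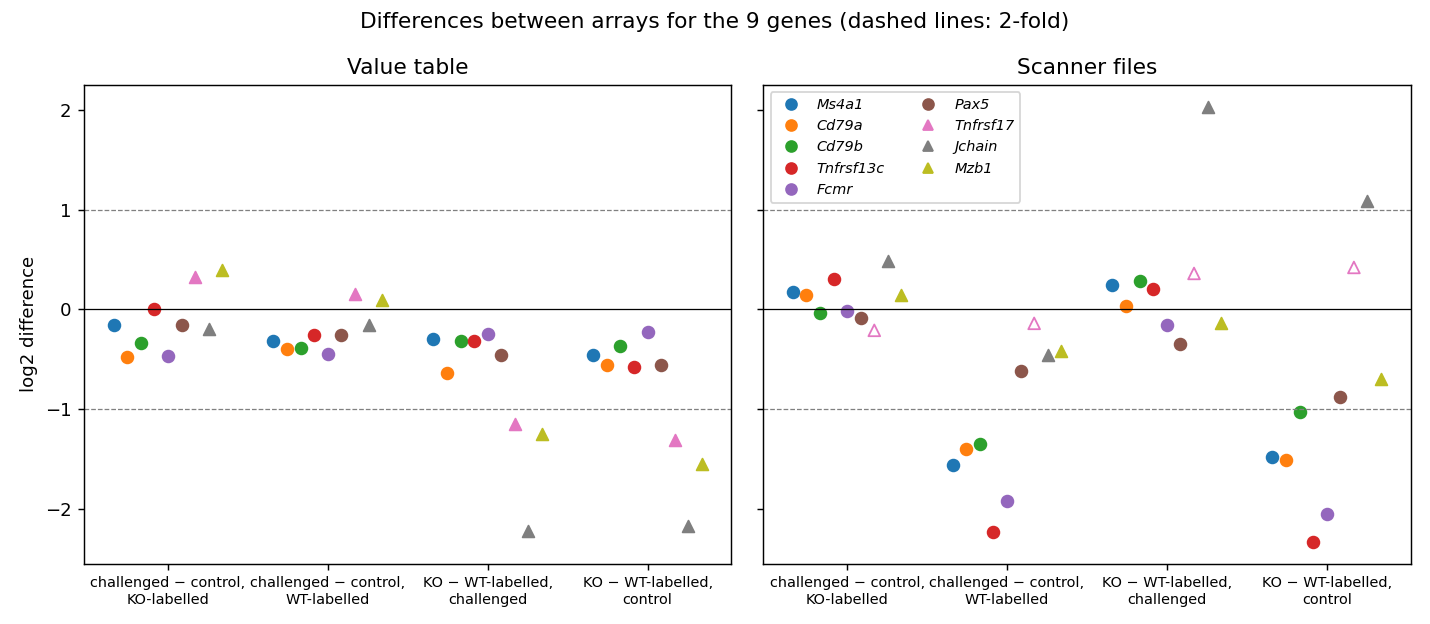
Log2 difference of each gene (y axis) in the 4 pairwise comparisons, with the value table on the left and the scanner files on the right. Circles are B cell and triangles plasma cell genes, open symbols rest on an array not above background, and dashed lines mark 2-fold. In the table the circles lie between -0.64 and 0, and in the scanner files 5 circles pass -1 in the 2 comparisons that hold the WT-labelled control array.

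The third question is whether the response to challenge differs between the labels. In the table it differed by -0.08 to 0.29 for the 9 genes (KO-labelled pair minus WT-labelled pair, median 0.10), and 0 genes reached 2-fold, where 2.07% of all genes were higher and 1.97% lower. In the scanner files 5 of 9 genes reached 2-fold, all with the higher value in the KO-labelled pair, where 4.24% of all genes were higher and 3.73% lower. These were Tnfrsf13c (2.53), Fcmr (1.90), Ms4a1 (1.73), Cd79a (1.53) and Cd79b (1.31), each with a spot error of 0.29. Jchain followed at 0.94. All 5 rest on the high WT-labelled control array, and no replicate array checks it.

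In the only fit that leaves a residual, an additive limma model with 1 residual degree of freedom, none of the 9 genes passed an adjusted p of 0.05. For the challenge effect averaged over the labels, 0 of 26004 table genes passed (lowest adjusted p 0.474 in limma, 2285 genes with an unadjusted p below 0.05, and 117 passing with a variance trend). The 3 genes of the set with an unadjusted p below 0.05 were Fcmr (-0.46), Cd79a (-0.44) and Cd79b (-0.37), each with a limma adjusted p of 0.566. For the genotype effect 0 of 26004 passed (lowest 0.108, 3586 unadjusted, or 13.8%). Of the 9 genes 8, all but Fcmr, had an unadjusted limma p below 0.05, each lower under the KO label. Jchain had an average difference of -2.19, 4.58-fold lower in KO-labelled arrays, with a limma adjusted p of 0.108. Mzb1 had -1.40 (adjusted p 0.165 in limma) and Tnfrsf17 -1.23 (adjusted p 0.151 in limma).

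With a variance trend in limma, 5 of the 9 genes passed for the table's genotype effect: Jchain (adjusted p 0.000288), Mzb1 (0.00279), Tnfrsf17 (0.00503), Cd79a (0.0162) and Cd79b (0.0386). That setting called 1045 genes in all. On the scanner arrays 0 of 26311 genes passed for either effect, with 2515 (challenge) and 2822 (genotype) genes at an unadjusted p below 0.05 and with 1 (challenge) and 0 (genotype) genes passing with a variance trend. The limma adjusted p of the 9 genes there lay between 0.566 and 0.993 for challenge and between 0.425 and 0.83 for genotype. The lowest genotype value was that of Tnfrsf17 (difference 1.33), which was above background on the KO-labelled control array only. The fit used its measured values without the floor. Jchain had an average genotype difference of 1.56 in the scanner files, 2.95-fold higher in KO-labelled arrays, with a limma adjusted p of 0.437.

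Ratios between the genes show which of them kept step across arrays. In the table the difference of Tnfrsf13c and Ms4a1 varied by 0.17 over the 4 arrays, that of Cd79a and Cd79b by 0.32 and that of Fcmr and Ms4a1 by 0.37, while that of Jchain and Ms4a1 varied by 1.91. In the scanner data the same spreads were 0.85 for Tnfrsf13c and Ms4a1, 0.48 for Cd79a and Cd79b, 0.76 for Fcmr and Ms4a1, and 2.88 for Jchain and Ms4a1. Over all 15 pairs of the 6 B cell genes the spread was 0.16 to 0.54 in the table (median 0.32, 0 pairs at 2-fold) and 0.22 to 1.61 in the scanner files (median 0.78, 4 pairs at 2-fold), where Tnfrsf13c and Pax5 were the pair farthest apart. Jchain against each of the 6 varied by 1.75 to 2.24 in the table and by 2.53 to 3.64 in the scanner files. Mzb1 against the 6 varied by 1.32 to 1.86 in the table, but by 0.40 to 1.81 in the scanner files, where its spreads overlapped those of the B cell genes among themselves. Relative to Ptprc, a gene of all leukocytes, Ms4a1 varied by 0.44 in the table. Among scanner arrays it varied by 2.65, with a KO-labelled minus WT-labelled difference of -2.65 between controls.

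Of 16 other genes of the B cell surface, all measured, 12 had their highest level in the WT-labelled control in the table and 8 in the scanner files, where 7 were highest in the KO-labelled challenged array. In the scanner arrays 6 of 16 were at least 2-fold lower in the KO-labelled than in the WT-labelled control (median -0.60), and 5 of 16 were lower and 1 higher in the WT-labelled challenge pair (median -0.33). Fcrl1, an Fc receptor-like protein of B cells, had -6.24 in KO-labelled challenged, -6.69 in KO-labelled control, -6.81 in WT-labelled challenged and -4.56 in WT-labelled control arrays. Cxcr5, the chemokine receptor that draws B cells into follicles, had -3.09 in KO-labelled challenged, -3.78 in KO-labelled control, -3.16 in WT-labelled challenged and -1.74 in WT-labelled control arrays. Both were highest in the WT-labelled control, as the 6 genes were, while Ly6d was lowest there (3.83, against 4.35 to 4.74 in the other 3 arrays) and Cd180 was not above background there. Ly6d was chosen after its values were seen.

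Cd40, through which T cells activate B cells and which dendritic and epithelial cells also express, was highest in another array. Among scanner arrays it had -1.90 in the KO-labelled challenged array, against -4.82 in the KO-labelled control and -3.86 in both WT-labelled arrays. In the KO-labelled challenge pair 3 of the 16 surface genes were 2-fold higher and 0 lower (median 0.28), and between challenged arrays 2 of 16 were higher and 0 lower (median 0.18). For the difference of responses 7 of 16 had the higher value in the KO-labelled pair and 0 the lower (median 0.90).

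In the table, 14 of the 16 surface genes lay below 0 between controls and 13 of 16 between challenged arrays, with medians of -0.48 and -0.29 and 0 at 2-fold. Cr2, the complement receptor of B cells, had -0.89 (challenged) and -0.77 (control) under the KO label, against -0.10 (challenged) and 0.01 (control) under the WT label. Cd180 had -5.96 in KO-labelled challenged, -5.94 in KO-labelled control, -5.69 in WT-labelled challenged and -5.25 in WT-labelled control arrays. Fcgr2b, the inhibitory Fc receptor, shared with myeloid cells, went with challenge instead: 0.74 in the KO-labelled challenged array against -0.34 in its control, and 0.55 in the WT-labelled challenged array against -0.18 in its control. It was the 1 surface gene at 2-fold in the KO-labelled challenge pair (median of the list -0.10), and 0 were at 2-fold in the WT-labelled pair (median -0.20).

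Of 13 genes of receptor signalling, 1 was 2-fold lower and 1 higher between scanner controls (median -0.23), and 2 were lower and 0 higher in the WT-labelled challenge pair (median -0.36). For the difference of responses 5 of 13 had the higher value in the KO-labelled pair and 0 the lower (median 0.45): Bank1 (2.06), Btk (1.30), Syk (1.26), Dok3 (1.19) and Blk (1.12). Btk, Syk and Dok3 were named after their values were seen. Bank1, a scaffold of B cell receptor signalling, had -3.68 in KO-labelled challenged, -4.07 in KO-labelled control, -3.96 in WT-labelled challenged and -2.28 in WT-labelled control arrays. The kinase Blk was also highest there, with -5.24 in the WT-labelled control and -5.93, -5.96 and -6.33 in the KO-labelled challenged, KO-labelled control and WT-labelled challenged arrays. Prkcb, a kinase that T cells also use, was highest in the KO-labelled control (0.74) and lower in the KO-labelled challenged (-1.07), WT-labelled challenged (-1.51) and WT-labelled control (-0.67) arrays. In the table, 0 of 13 reached 2-fold in any comparison, and all 13 were below 0 between controls (median -0.31). Blnk, the adaptor beside the receptor, had 1.45 in the KO-labelled control, against 1.95 in the WT-labelled control.

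Among 12 transcription factors of the lineage, 0 reached 2-fold between genotype labels in either source. In the scanner files 1 of 12 was 2-fold lower in each challenge pair. Bach2, which holds back plasma cell formation, had -3.11 in the KO-labelled challenged array against -2.04 in its control, and -2.84 in the WT-labelled challenged array against -1.91 in its control. Ebf1, which specifies the lineage, had -4.58 in the WT-labelled challenged array against -3.43 in its control, and -4.94 in the KO-labelled challenged array against -4.40 in its control. In the table, 11 of 12 were below 0 between controls (median -0.33). Pou2af1, a coactivator of antibody genes, had 0.11 (challenged) and -0.05 (control) under the KO label, against 0.60 (challenged) and 0.79 (control) under the WT label. Pou2f2, an octamer-binding factor of B cells, had -2.49 and -2.60 in the KO-labelled challenged and control arrays, against -2.26 and -1.91 in the WT-labelled ones. Its scanner levels were -3.66 and -4.60 in the KO-labelled challenged and control arrays, against -4.12 and -3.68 in the WT-labelled ones, a difference of responses of 1.38. In the table Bcl11a had -1.34 and -1.38 in the KO-labelled challenged and control arrays, against -0.96 and -0.82 in the WT-labelled ones.

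The wider plasma cell list of 19 genes showed smaller table differences at its median than Jchain, Mzb1 and Tnfrsf17. The list median between labels was -0.13 after challenge and -0.06 in controls in the table, with 1 of 19 genes 2-fold lower in each. Derl3, of the protein disposal machinery of the endoplasmic reticulum, was the lower gene in controls (-1.26) and short of 2-fold after challenge (-0.98), with -1.37 (challenged) and -1.87 (control) under the KO label, against -0.39 (challenged) and -0.61 (control) under the WT label. Irf4, which drives plasma cell formation, had -1.53 and -2.20 in the KO-labelled challenged and control arrays, against -1.02 and -1.27 in the WT-labelled ones. Xbp1, the secretory regulator, lay between 4.6 and 4.81 on all 4 table arrays, and Sdc1, a surface marker of plasma cells and of epithelium, between 1.34 and 1.53. Xbp1 and Sdc1 were chosen after their values were seen.

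On the scanner arrays 1 of 19 plasma cell list genes was 2-fold lower after challenge between labels (median 0.09), and 1 was lower and 1 higher between controls (median -0.04). Eaf2, a transcription elongation factor, was the lower gene in both, with 3.21 and 2.71 in the KO-labelled challenged and control arrays, against 5.05 and 4.40 in the WT-labelled ones. It was also the 1 gene at 2-fold after challenge in the table (-1.33), with 1.91 and 2.10 in the KO-labelled challenged and control arrays, against 3.23 and 2.89 in the WT-labelled ones. Cd27, found on T cells as well as on plasma cells, was the higher gene between controls, with -2.47 in the KO-labelled control, against -4.72 in the WT-labelled control. In the scanner challenge pairs 2 of 19 were 2-fold higher and 1 lower (KO-labelled, median 0.43) and 0 were at 2-fold (WT-labelled, median 0.18). The 2 higher genes were Irf4, with -4.00 in the KO-labelled challenged array against -5.26 in its control, and Xbp1, with 5.99 against 4.86. In the WT-labelled pair Xbp1 had 5.72 in the challenged array against 4.90 in its control, and Irf4 had -4.88 against -4.35.

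Of 6 germinal centre genes, 1 was 2-fold lower in the KO-labelled array after challenge and 1 in controls (median 0.16) of the table, and 0 in either comparison of the scanner files (medians 0.33 after challenge and 0.02 in controls). In the table Gcsam, a protein of germinal centre B cells, was the lower gene in both, with -4.66 (challenged) and -4.86 (control) under the KO label, against -3.19 (challenged) and -3.20 (control) under the WT label. Gpr183, the receptor that positions activated B cells in follicles, had table levels of -2.02 in KO-labelled challenged, -2.17 in KO-labelled control, -1.64 in WT-labelled challenged and -1.58 in WT-labelled control arrays. Its scanner levels were -3.80, -4.36, -4.50 and -3.86 in the KO-labelled challenged, KO-labelled control, WT-labelled challenged and WT-labelled control arrays, with all pairwise differences under 2-fold. Rgs13, also a gene of mast cells, was below 2-fold in every comparison of either source.

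**Figure D3:**
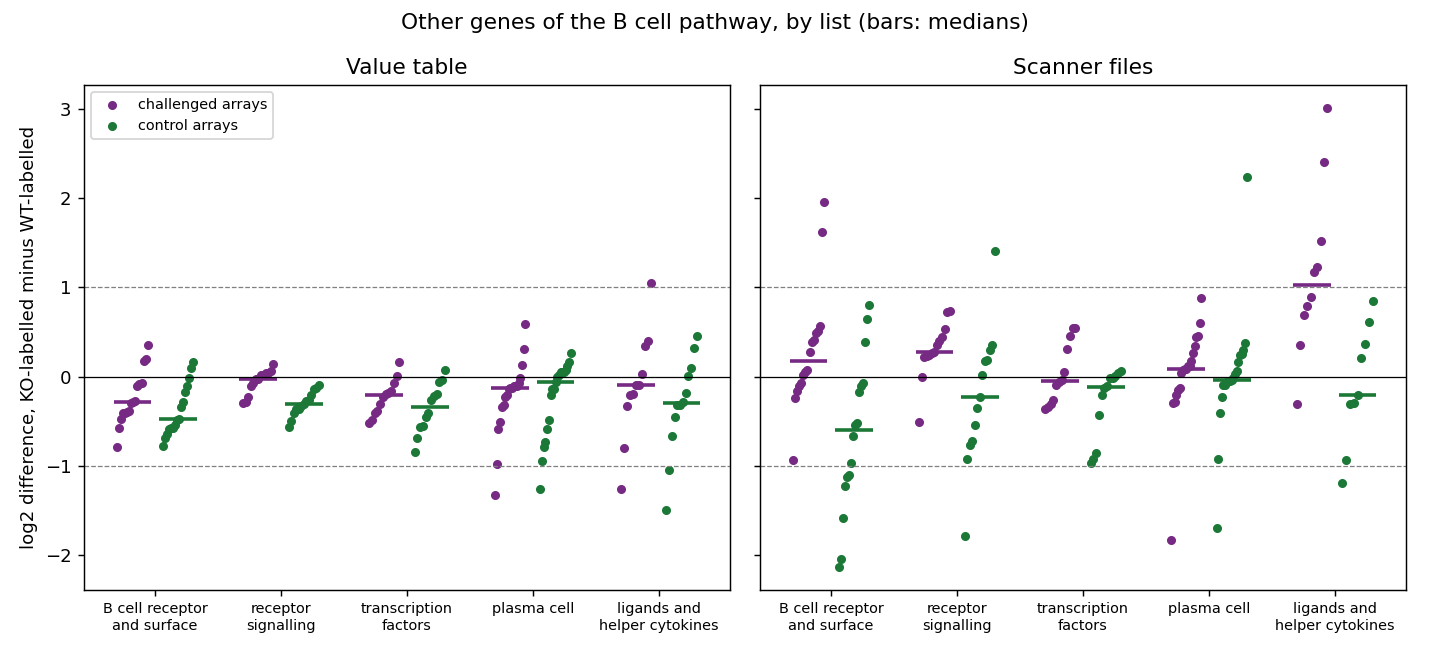
KO-labelled minus WT-labelled log2 difference (y axis) of each gene in 5 lists of B cell and plasma cell biology, with the value table on the left and the scanner files on the right. Purple points are challenged and green points control arrays, bars are list medians and dashed lines mark 2-fold; genes at background on both arrays are left out. The surface genes have control medians of -0.48 in the table and -0.60 in the scanner files, and the plasma cell list medians of -0.06 and -0.04.

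Several signals that act on B cells read higher after challenge in the table and in the KO-labelled scanner pair. Of 14 ligands, attractants and helper cytokines 12 are on the array. In the table, 3 of 11 measured genes were 2-fold higher in the KO-labelled pair (median 0.64) and 1 of 12 in the WT-labelled pair (median 0.39), with 0 lower. Il5, a growth factor of eosinophils and, in mouse, of some B cells, had -4.01 in the KO-labelled challenged array against -5.04 in its control, and -5.06 in the WT-labelled challenged array against -5.48 in its control. Lta, a cytokine that organises lymphoid tissue, had -4.27 and -4.91 in the KO-labelled challenged and control arrays, against -3.47 and -3.87 in the WT-labelled ones. Between labels 1 was 2-fold higher and 1 lower after challenge (median -0.09), and 2 were lower in controls (median -0.30). Il21, which drives plasma cell formation, was lower in the KO-labelled challenged array (-6.80) than in the WT-labelled one (-5.53).

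Among scanner arrays 5 of 10 measured ligand genes were 2-fold higher in the KO-labelled challenge pair (median 1.00), with 0 lower. In the WT-labelled pair 1 of 10 was 2-fold higher and 0 lower (median 0.02), and 5 lay above 0 and 5 below. Between labels 5 of 10 were higher after challenge (median 1.03) and 1 of 9 was lower in controls (median -0.21). Il6, which supports plasma cells, had -2.87 in the KO-labelled challenged array, -5.88 in WT-labelled challenged and -6.41 in WT-labelled control arrays, and was not above background in the KO-labelled control. Il4, a cytokine of T cell help and of class switching to IgE, had -4.16 in the KO-labelled challenged array against -6.16 in its control, and -5.33 in the WT-labelled challenged array against -5.86 in its control. Il5 was above background in the challenged arrays only, with -2.52 (KO-labelled) and -4.92 (WT-labelled). The B cell attractant Cxcl13 had -0.31 in KO-labelled challenged, -1.61 in KO-labelled control, -1.54 in WT-labelled challenged and -0.68 in WT-labelled control arrays. Tnfsf13b, which encodes BAFF, the ligand of Tnfrsf13c, ranged from -3.66 to -2.59 in the scanner files and from -0.23 to 0.06 in the table. Pigr, which carries antibody joined by Jchain across epithelium, had 7.0 and 6.77 in the KO-labelled challenged and control scanner arrays, against 6.31 and 6.16 in the WT-labelled ones. In the table Pigr had 4.76 and 3.96 in the KO-labelled challenged and control arrays, against 4.42 and 3.95. It thus differed little between labels there (0.34 and 0.01), where Jchain was lower under the KO label. Cxcl13, Tnfsf13b and Pigr were chosen after their values were seen.

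The precursor list separated the KO-labelled scanner control from the other arrays, in genes that developing T cells share. Rag1, of the enzyme that recombines antigen receptor genes, had 1.43 in the KO-labelled control, against -4.37 in the WT-labelled control, with -2.51 in the KO-labelled and -4.95 in the WT-labelled challenged array. Dntt, which adds bases at the joins, had 3.72 in the KO-labelled control, against -1.87 in the WT-labelled control, with -0.45 in the KO-labelled and -1.72 in the WT-labelled challenged array. Rag2 showed the same array as high (-1.51 in the KO-labelled control, against -6.95 in the WT-labelled control). Of 9 listed genes 3 were 2-fold higher between controls (median 0.03). These were Rag1, Rag2 and Dntt. In the table Rag1 and Rag2 were not above background on any array, and 0 of 7 measured genes reached 2-fold in any comparison. Il7r, the receptor of a lymphocyte growth factor that T cells also carry, had -0.89 and -1.48 in the KO-labelled challenged and control arrays of the table, against -0.41 and -0.87 in the WT-labelled ones. Bst1, a surface enzyme that myeloid cells also express, had 0.73 and 1.16 in the KO-labelled arrays, against 0.80 and 0.68 in the WT-labelled ones.

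Markers of other cells differed between the same arrays, and their part in the B cell results was not tested. A summed level below adds the linear levels of a list, with 1 at the 75th percentile. In the scanner arrays the summed level of 2 B cell markers, Ms4a1 and Cd79a, both among the 9 genes, was 0.791 in KO-labelled challenged, 0.709 in KO-labelled control, 0.699 in WT-labelled challenged and 1.99 in WT-labelled control arrays. The 9 T cell markers summed to 8.17, 45.4, 5.63 and 7.58 in the KO-labelled challenged, KO-labelled control, WT-labelled challenged and WT-labelled control arrays. All 9 were above background on every array. The 7 thymocyte markers, also above background on every scanner array, summed to 19.7 in the KO-labelled control and to 0.557 to 1.33 in the other 3. The KO-labelled control was therefore the high array for T cell and thymocyte genes, and the WT-labelled control for B cell genes. In the 2 challenged arrays the B cell genes were low, and the thymocyte markers summed to 1.33 (KO-labelled) and 0.557 (WT-labelled). Between these arrays 5 of 7 thymocyte markers were at least 2-fold higher under the KO label (median 1.27). Whether the levels of these cell types are linked was not tested.

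Of 6 markers of follicular dendritic cells and lymph node stroma 4 are on the array. They summed in the scanner files to 1.30 in KO-labelled challenged, 0.830 in KO-labelled control, 0.914 in WT-labelled challenged and 1.26 in WT-labelled control arrays. Glycam1, made by vessels of lymph nodes, had -5.49 in the KO-labelled challenged array, -7.14 in WT-labelled challenged and -4.63 in WT-labelled control arrays, and was not above background in the KO-labelled control. Glycam1 was thus highest in the WT-labelled control and next highest in the KO-labelled challenged array. Cxcl13 was highest in the KO-labelled challenged array (-0.31) and next highest in the WT-labelled control (-0.68). Madcam1 lay between -3.42 and -3.37 and Ccl19 between -1.41 and -1.0 on the scanner arrays. The part of such tissue in the B cell results was not tested. In the table Glycam1 was not above background on any array, and the list summed to 0.998 in KO-labelled challenged, 0.692 in KO-labelled control, 1.20 in WT-labelled challenged and 0.897 in WT-labelled control arrays.

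In the table the T cell markers were also lower in the KO-labelled arrays, with summed levels of 16.3 and 14.3 in the KO-labelled challenged and control arrays, against 22.8 and 20.2 in the WT-labelled ones (9 of 9 genes below 0 in both treatments). Dendritic cell markers summed to 7.40 and 6.55 in the KO-labelled arrays, against 12.6 and 9.99 in the WT-labelled ones, and NK cell markers to 14.2 and 20.3, against 10.9 and 14.0. Plasmacytoid dendritic cells also express Mzb1, and their part in its levels was not tested. Their 6 markers summed to 33.8 and 30.4 in the KO-labelled arrays, against 36.1 and 35.8 in the WT-labelled ones. The list medians between labels were -0.07 (challenged) and -0.16 (control), with 4 of 6 and 5 of 6 genes below 0. Bst2, which interferon also induces, was the 1 gene at 2-fold between labels, with 1.86 and 2.11, against 3.09 and 3.12. Cd209d was higher under the KO label, with 0.39 and -1.41, against -0.44 and -1.74. The B cell markers summed to 3.94 and 4.74 in the KO-labelled challenged and control arrays, against 5.25 and 6.68 in the WT-labelled ones.

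The other marker sums of the table ranged as follows: 52.1 to 57.5 for macrophage and monocyte, 63.4 to 76.7 for neutrophil, 266 to 284 for alveolar, 117 to 136 for airway, 32.1 to 37.4 for endothelial and 1.70 to 1.95 for thymocyte markers.

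On the scanner arrays several lists differed in the same comparisons as the B cell genes, and their part was not tested. Of 5 neutrophil markers 4 were 2-fold higher in the KO-labelled (median 2.81) and in the WT-labelled challenge pair (median 1.76) and between challenged arrays (median 1.74), and 1 between controls (median 0.85). Their sum was 88.9 in KO-labelled challenged, 45.8 in KO-labelled control, 63.2 in WT-labelled challenged and 58.2 in WT-labelled control arrays, of which Csf3r, with log2 levels of 5.03 to 5.74, is a large part. Of 3 endothelial markers 2 were 2-fold lower in the KO-labelled than in the WT-labelled control (median -1.06), with sums of 0.271, 0.164, 0.325 and 0.308 in the KO-labelled challenged, KO-labelled control, WT-labelled challenged and WT-labelled control arrays. NK cell markers summed to 0.895 in KO-labelled challenged, 2.12 in KO-labelled control, 1.04 in WT-labelled challenged and 0.892 in WT-labelled control arrays. Dendritic cell markers summed to 1.58 and 0.825 in the KO-labelled challenged and control arrays, against 0.882 and 1.21 in the WT-labelled ones. The sums of macrophage and monocyte markers were 44.7 or more on every array, those of plasmacytoid dendritic cell markers 45.3 to 56.1, of alveolar markers 33.5 to 42.4 and of airway markers 324 to 346. Of the dendritic cell markers Xcr1 was not above background on any scanner array. Ptprc, the leukocyte marker, had linear levels of 1.42 and 1.20 in the KO-labelled challenged and control arrays of the table, against 1.57 and 1.61 in the WT-labelled ones, and 0.367 and 0.587 in the KO-labelled arrays of the scanner files, against 0.162 and 0.261. Ptprc was thus over 2-fold higher under the KO label in the scanner files, after challenge (1.18 on the log2 scale) and in controls (1.17).

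**Figure D4:**
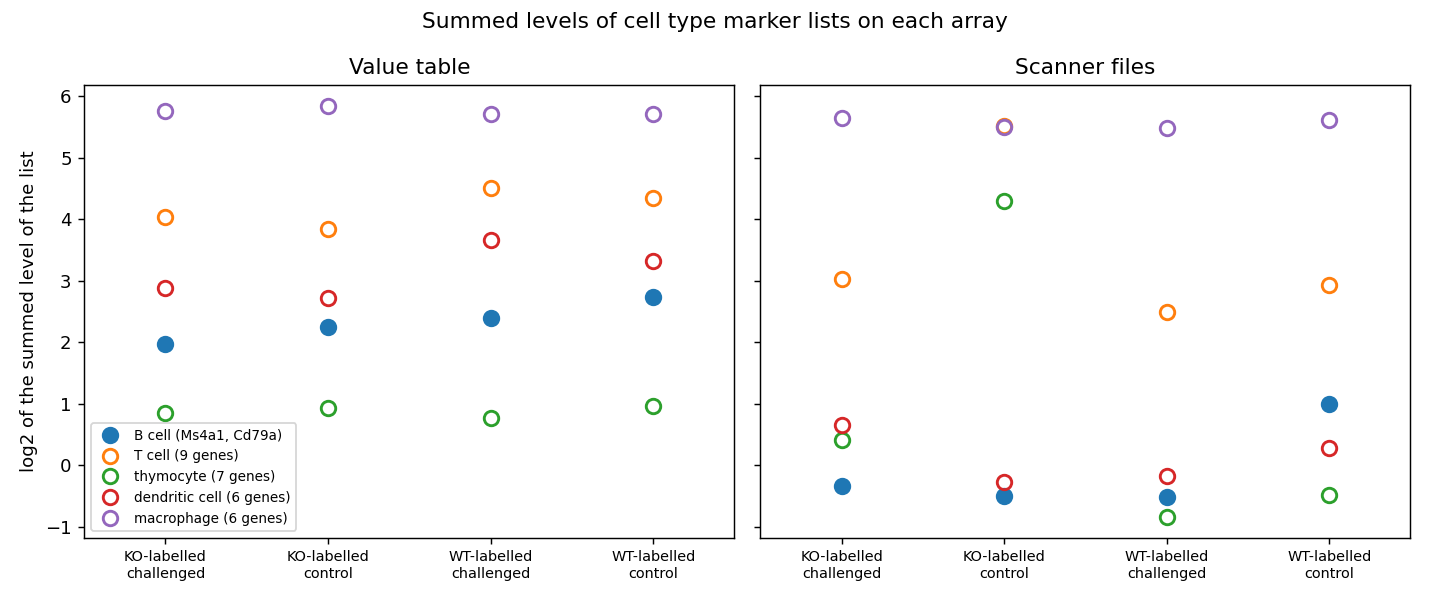
Summed level of 5 cell type marker lists on each array (y axis, log2 of the sum of linear levels), with the value table on the left and the scanner files on the right. Filled blue circles are the B cell markers and open circles the other lists. In the scanner files the B cell sum is highest in the WT-labelled control (1.99 on the linear scale), while the T cell sum (45.4) and the thymocyte sum (19.7) are highest in the KO-labelled control.

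The genes whose levels were most like the mean profile of the 8 fully measured genes, over the 8 columns of both sources and among 378 candidates, were Ccr7 (r = 0.981), Trim69 (0.955), Fcer2a (0.954), Ifi214 (0.898) and Rnf39 (0.885). This likeness is a description over columns that share arrays and scaling. Candidates had to be above background in all 8 columns and to range over at least 1 in each source. In the table Ms4a1 (0.62) and Tnfrsf13c (0.58) themselves fell short of that range, so genes as even as these could not be ranked. For the 6 B cell genes alone the same 5 genes came first, led by Fcer2a (0.953). For Jchain and Mzb1 alone other genes did, led by Ssh1 (0.967), which was chosen after its values were seen. Ccr7, the receptor that guides lymphocytes and dendritic cells to lymph nodes, had 1.14 in KO-labelled challenged, 1.39 in KO-labelled control, 2.06 in WT-labelled challenged and 2.16 in WT-labelled control arrays of the table. On the scanner arrays Ccr7 had -1.29 in KO-labelled challenged, -1.55 in KO-labelled control, -1.79 in WT-labelled challenged and -0.55 in WT-labelled control arrays. Fcer2a, the low-affinity IgE receptor of B cells, had -2.11 and -1.70 in the KO-labelled challenged and control table arrays, against -1.53 and -1.06 in the WT-labelled ones. In the scanner data it had -3.92 and -3.93, against -3.80 and -2.81. Both were highest in the WT-labelled control of both sources.

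Because Jchain and Tnfrsf17 shared a difference between labels in the table, their promoter windows are shown, from 250 bases before to 50 after the start that RefSeq gives (GRCm38.p6). Windows were at hand for 6 of the 9 genes: Cd79a, Fcmr, Jchain, Pax5, Tnfrsf13c and Tnfrsf17. The Tnfrsf17 start lies 577 bases inside the edge of the RefSeq gene. Capitals mark matches to searched motifs, in Jchain the E-box CAGGTG on the other strand, and in Tnfrsf17 the TATA box TATAAA and then the interferon response core (GAAA, any pair of bases, GAAA) on the other strand:
Jchain, chr5:88527848-88528147, minus strand: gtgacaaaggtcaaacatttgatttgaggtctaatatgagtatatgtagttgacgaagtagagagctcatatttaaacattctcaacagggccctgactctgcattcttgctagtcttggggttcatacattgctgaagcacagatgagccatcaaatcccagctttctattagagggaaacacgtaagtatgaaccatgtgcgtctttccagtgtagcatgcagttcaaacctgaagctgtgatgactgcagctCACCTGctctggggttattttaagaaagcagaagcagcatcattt
Tnfrsf17, chr16:11313559-11313858, plus strand: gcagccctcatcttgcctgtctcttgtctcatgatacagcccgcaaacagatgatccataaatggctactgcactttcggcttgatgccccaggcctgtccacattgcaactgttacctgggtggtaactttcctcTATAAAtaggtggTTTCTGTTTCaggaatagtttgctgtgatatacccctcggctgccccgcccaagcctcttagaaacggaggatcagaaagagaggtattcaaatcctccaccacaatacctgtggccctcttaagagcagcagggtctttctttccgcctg

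No searched motif was found in both windows. Both strands were searched in 32851 RefSeq windows of the same length. CAGGTG occurred in 4 of the 6 windows (Cd79a, Fcmr, Jchain and Tnfrsf13c) and in 20.2% of all windows. The interferon response core occurred in Tnfrsf17 and in 3.44% of all, and TATAAA in Tnfrsf17 and in 13.6% of all. The octamer ATGCAAAT of antibody gene promoters (1.74% of all windows), the paired EBF half-sites CCCNNGGG (13.7%), the NF-kB consensus (0.155%) and the unfolded protein response motif TGACGTGG (0.676%) occurred in 0 of the 6. A match describes the letters of the window and not a site in use.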

How the data were processed

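RNA described as mouse whole lung was measured on 4 Agilent 1-colour arrays, 1 per group, grouped by the sample titles, with 200 ng of RNA labelled. The scanner files hold intensity, per the file headers, from Agilent Feature Extraction 11.5.1.1 (the version also in the submitters' processing notes) with probe coordinates on mm9. The authors deposited a value table with a linear signal per spot, whose 75th percentile lies at 1 in each column. The sources at hand do not say how it was made. Genes were not centred.

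Both were taken to log2 relative to the 75th percentile of non-control probes, since the table could not serve as an alternative to scanner files it did not match. Spots of a probe were averaged, 20 uneven probes left out, and 0 spots were saturated. Scanner probes were called above background by Agilent's flag, and table probes at 5 times the median of the 153 negative controls, a rule that matched the flag for 99.2% of scanner spots. Probes were named through RefSeq (GRCm38) by accession (28330), symbol (2204) or synonym (174), and 8721 kept the name in the file. A gene was represented by its brightest probe. An array not above background took the higher of its floor (the lowest signal among probes above background) and the measured value, so such differences are bounds.

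With 1 array per group the pairwise differences have no test and were counted at 2-fold, among genes above background on at least 1 array compared. The additive fit used limma 3.58.1 in R 4.3.3 on measured values, without the floor, with Benjamini-Hochberg adjustment over all genes tested. It was also run on simulated data with independent noise and without interaction or pool differences, so that run does not check the fit against these. On the real arrays the spread of the fit mixes interaction with differences between pools. The number of arrays limits precision. The genes, 7 gene lists and 13 marker lists were chosen with earlier results of these data known. Some list genes were left out of every list and sum and are not reported here. Named genes are all members, Pla2g3, the 3 list genes with the largest difference in each source and the 5 most alike in profile. Others, apart from cell type markers, are said to be chosen after their values were seen. Further software was Python 3.11.15, pandas 2.3.3, numpy 2.4.6 and matplotlib 3.10.9. No column of another sample was present (0 columns).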

Additional observations from a re-analysis of the deposited data

Results flagged for a closer look

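In the scanner files Ms4a1, Cd79a and Tnfrsf13c differed after challenge in opposite directions under the 2 genotype labels. The difference of responses (KO-labelled minus WT-labelled) was 2.53 for Tnfrsf13c, with 0.30 in the KO-labelled and -2.23 in the WT-labelled pair. For Ms4a1 it was 1.73, with 0.17 (KO-labelled) and -1.56 (WT-labelled), and for Cd79a it was 1.53, with 0.14 (KO-labelled) and -1.40 (WT-labelled). For Cd79a this rests on 1 of its 2 probes: the dimmer probe had -0.06 (KO-labelled) and -1.04 (WT-labelled), the same sign. The difference was not tested, since each group has 1 array, and the KO-labelled values of Ms4a1 and Cd79a are smaller than the spot error of 0.20. In the table the same differences were 0.26 for Tnfrsf13c, 0.16 for Ms4a1 and -0.08 for Cd79a.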

How the results depend on the processing

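Quantile normalization, scaling to the median, normexp correction, filters, probe choice and limma settings turned the sign of no difference of the 9 genes that was past 2-fold. Of 651 values under these alternatives 11 changed sign, all at most 0.16 in size before and after, among them Cd79a with its dimmer probe in the KO-labelled scanner pair (0.14 as reported and -0.06 with it) and in the table's difference of responses (-0.08 and 0.16). Quantile normalization turned that table difference for Jchain (-0.04 as reported, 0.06 with it) and Fcmr (-0.02 and 0.04). Other values moved as follows. With a 3-fold rule the number of the 9 genes called was 1 in the table for either KO-labelled minus WT-labelled comparison, 2 in the scanner files for the WT-labelled challenge pair and for the control comparison, and 3 for the difference of responses. With no filter it was 2 between challenged scanner arrays, Tnfrsf17 being added. The shares of all genes called under these 2 rules are not given here, so these counts cannot be set against the whole array. In limma a variance trend called 117 genes for challenge and 1045 for genotype in the table, and 1 for challenge in the scanner files, where normexp also called 1. Requiring all arrays above background called 271 genes for genotype in the table, 2 of them among the 9. The cause was not tested, except that a 3-fold rule asks for larger differences by construction.

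For single genes, normexp took Jchain between scanner controls to 0.98, and measured values at background took Tnfrsf17 there to 1.46. The dimmer Cd79a probe gave -0.96 there and 0.98 for the difference of responses. Keeping measured values at background, the dimmer probes and the median without plasma cell genes were chosen after seeing the data. The median over all genes stayed within -0.063 and 0.060 under every scaling run. No paired analysis was possible because each group has 1 array, and for the same reason no array could be left out. Signal over background limits Tnfrsf17 and Pax5 most.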
